A study of Mus musculus with 2 samples.

Results

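The genes Clu, Anxa1, Ly6a, Msln, Gja1 and Sprr2a3, known from fetal and regenerating gut epithelium, were followed through single cells of mouse colon adenomas. The 6 genes were taken by name, with earlier results of these data known, and all 6 were among the 21041 genes of the deposited matrix. They are described across the authors' cell types, epithelial subtypes and chromosomal instability classes. Distal colon adenomas came from Apcmin;LSL-mTERT mice of 25 weeks, 1 library labelled G4+T and 1 labelled G0+T, on the 10x Genomics droplet platform, which counts RNA molecules by unique molecular identifiers (UMIs). All groups share both alleles: Apcmin, a truncated Apc that removes a brake on Wnt signalling, and LSL-mTERT, a mouse telomerase allele behind a stop cassette. Neither the Cre that would remove the cassette nor the number of animals per library is stated in the labels. The authors' classes, CIN_high and CIN_low, each cover exactly 1 library. The cell names do not settle which of these libraries is G4+T and which is G0+T, so the libraries are called by their class.

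When the gut lining is injured, epithelial cells can leave the usual crypt programme and take up genes of the fetal intestine while the tissue repairs. In mice this state has been tied to the transcriptional regulator Yap, and cells in it often carry little of the Lgr5-type stem cell programme. Clu encodes clusterin, a secreted chaperone that marks revival stem cells of the damaged mouse intestine. Anxa1 encodes annexin A1, a membrane-binding protein that acts on formyl peptide receptors and takes part in wound closure. Ly6a encodes Sca-1, a lipid-anchored surface protein used to find fetal-like cells in injured mouse colon, and it is also made by blood progenitors, T cells and endothelium. Msln encodes mesothelin, a surface protein best known from mesothelium and several carcinomas. Gja1 encodes connexin 43, a gap junction channel protein, and Sprr2a3 a small proline-rich protein of the cornified envelope family.

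The CIN_high library held 6189 cells (51868113 UMIs, median 6448 per cell) and the CIN_low library 7908 cells (74733715 UMIs, median 7154). Of these, 1316 CIN_high and 1725 CIN_low cells were epithelial, with medians of 14032.5 and 15364 UMIs per cell. In all, 11 barcodes occurred in both libraries. All 8 epithelial markers had UMIs in these cells and summed to 107 UMIs per 10000 in CIN_high and 98.4 in CIN_low. Each class being 1 library, no difference could be tested or checked in a replicate. Levels below are each cell's UMIs per 10000 of its total, averaged over cells, and a ratio is the CIN_high level over the CIN_low level. Intervals are 95%, cover counting error only and, where given for a ratio, were taken on summed UMIs. A ratio was called past 1.5-fold in either direction. Over the 13304 genes measured in epithelium, meaning a UMI in at least 2% of the cells of a library, the median log2 ratio was -0.10.

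Clu, the clusterin gene, had 3.36 UMIs per 10000 in CIN_high epithelium and 1.90 in CIN_low epithelium. These levels rest on 7767 and 5577 UMIs. The ratio was 1.77, and that of summed UMIs 2.07 (interval 1.998 to 2.14). The gene was concentrated in few cells: the 10% of cells with most Clu held 70.0% of its UMIs in CIN_high and 67.0% in CIN_low epithelium. A single CIN_high Stem_cell_1 cell held 627 UMIs, or 8.07% of the library's epithelial Clu, whereas the highest CIN_low cell, an enterocyte, held 197. Nearly all Clu lay in epithelium, with 91.0% of the CIN_high and 93.3% of the CIN_low UMIs. Its highest levels were those of enterocytes, at 4.06 in CIN_high and 4.70 in CIN_low, and Stem_cell_1 cells, at 5.67 in CIN_high and 2.85 in CIN_low. The order of these subtypes thus differed between the libraries. By the mean of both libraries Cancer_cell_1 came next, and after it endothelial cells, averaging 1.80 UMIs per 10000 for CIN_high and 1.24 for CIN_low, a range that overlapped that of the next in order. Myeloid cells had 0.0598 and 0.0423 in the same libraries.

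Between the libraries Clu differed by subtype. Its ratio was 1.99 in Stem_cell_1 (summed UMIs 2.55, interval 2.41 to 2.70), 3.40 in p57+_cancer_cell and 2.23 in proliferating cells. In Cancer_cell_1 it was 1.43, short of the line, and in enterocytes 0.864. The proliferating value leans on 1 CIN_high cell with 321 of 587 UMIs, against a highest CIN_low cell of 26 among 409 UMIs. In p57+_cancer_cell the UMIs were fewer, 122 in 77 CIN_high cells and 143 in 211 CIN_low cells, with an interval of 2.32 to 3.81. Stem_cell_1 held 51.2% of all epithelial Clu UMIs in CIN_high and 29.6% in CIN_low, with 26.3% and 19.6% of the epithelial cells.

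Anxa1, which encodes the repair-associated annexin A1, reached 3.30 UMIs per 10000 in CIN_high epithelium and 2.74 in CIN_low epithelium. The ratio of 1.20 did not pass the line, and the ratio of summed UMIs was 1.23 (interval 1.19 to 1.27; 7738 and 9341 UMIs). Enterocytes had the highest Anxa1 level in both libraries, 10.2 in CIN_high and 9.52 in CIN_low. Stem_cell_1 cells came next with 5.52 in CIN_high and 5.40 in CIN_low, and the ranges of these 2 subtypes over the libraries did not overlap. Outside the epithelium Anxa1 was also high in pericytes (2.54 in CIN_high, 4.79 in CIN_low), myeloid cells (3.11 in CIN_high, 3.41 in CIN_low) and fibroblasts (2.93 in CIN_high, 2.36 in 21 CIN_low cells). Epithelium therefore held only 52.9% of the Anxa1 UMIs in CIN_high and 45.4% in CIN_low, and myeloid cells 27.9% and 50.7%. Within subtypes Anxa1 passed the line in p57+_cancer_cell, at 0.589 (summed UMIs 0.735, short of the line, interval 0.594 to 0.901), and in the secretory subtype, at 0.455 (interval 0.312 to 0.519), both lower in CIN_high. The ratio was 1.02 in Stem_cell_1 and 1.08 in enterocytes.

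Ly6a, the gene of Sca-1, had 6.19 UMIs per 10000 in CIN_high and 5.04 in CIN_low epithelium, from 15806 and 20236 UMIs. The ratio was 1.23, and by summed UMIs 1.16 (interval 1.14 to 1.18). Enterocytes again led, with 21.9 in CIN_high and 23.2 in CIN_low. The Stem_cell_1 subtype stood at 10.8 in CIN_high and 10.6 in CIN_low, while Cancer_cell_1 cells had 1.93 and 1.55. Lowest was p57+_cancer_cell, with 0.141 UMIs per 10000 in CIN_high and 0.925 in CIN_low. Ly6a was not limited to epithelium: T and NK cells had 9.47 in CIN_high and 15.0 in CIN_low, endothelium 10.5 and 9.29, and fibroblasts 12.7 and 5.61. Epithelial cells held 47.4% of its UMIs in CIN_high and 55.9% in CIN_low.

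In p57+_cancer_cell Ly6a was lower in CIN_high, at a ratio of 0.152 (13 UMIs in CIN_high and 252 in CIN_low, interval 0.0944 to 0.313). A single CIN_low cell held 43 of the 252 UMIs, and 21.8% of the CIN_low cells had any, against 15.6% of the CIN_high cells. In the other epithelial subtypes with a ratio Ly6a did not pass the line, with its lowest ratio, 0.768, in proliferating cells. By summed UMIs Cancer_cell_1 stood at 1.59, which passes it. Among other types, Ly6a was 2.48-fold higher in CIN_high pericytes (165 and 92 UMIs) and at 0.633 in T and NK cells, past the line on the lower side. Of all genes measured in pericytes, 24.9% were past the line higher and 22.1% lower, and in T and NK cells 13.4% and 16.8%.

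Msln, the mesothelin gene, was sparse, with 0.161 UMIs per 10000 in CIN_high and 0.0850 in CIN_low epithelium (424 and 287 UMIs). A UMI was found in 6.91% of the CIN_high and 4.81% of the CIN_low cells. The ratio was 1.90, and 2.19 by summed UMIs (interval 1.88 to 2.56). Epithelium held 96.8% of its UMIs in CIN_high and 98.3% in CIN_low, and fibroblasts, T and NK cells, B cells and the secretory subtype had 0 UMIs in both libraries. Stem_cell_1 had 0.399 UMIs per 10000 in CIN_high, the highest level there among the subtypes ranked in both libraries. In CIN_low it had 0.146, where p57+_cancer_cell had 0.239 and enterocytes 0.147. The enterocyte level rests on few cells, since a single CIN_low enterocyte held 29 of the subtype's 32 Msln UMIs. The Igfbp+_cell subtype, found only in CIN_high and not ranked, held 23 Msln UMIs in 25 cells. In Stem_cell_1 the ratio was 2.73 (311 and 119 UMIs, interval 2.23 to 3.45). That subtype held 73.3% of the epithelial Msln UMIs in CIN_high and 41.5% in CIN_low. In p57+_cancer_cell the direction was the opposite, at 0.255, with 6 UMIs in CIN_high and 63 in CIN_low. Of the mesothelial markers, 6 were in the matrix. They summed to 0.156 UMIs per 10000 in CIN_high and 0.128 in CIN_low epithelium, most of it Krt14, and Upk3b and Upk1b were at 0 in CIN_low. Krt14 was also listed as a squamous or anal epithelium marker, so this sum is not particular to mesothelium. The squamous or anal markers summed to 3.11 in CIN_high and 2.59 in CIN_low epithelium. Stem_cell_1 had 4.76 of them in CIN_high and 6.01 in CIN_low. The part of either marker list in the Msln values was not tested.

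Gja1, the connexin 43 gene, was mainly a gene of stroma and vessels. Endothelial cells had 4.60 UMIs per 10000 in CIN_high and 5.45 in CIN_low, and fibroblasts 4.41 in CIN_high and 4.46 in 21 CIN_low cells. Pericytes had 0.776 in CIN_high and 0.263 in CIN_low. In the epithelium it reached 0.0580 in CIN_high and 0.0215 in CIN_low, on 147 and 79 UMIs. Epithelial cells held 3.23% of all Gja1 UMIs in CIN_high and 6.71% in CIN_low. The epithelial ratio was 2.69 (interval 2.09 to 3.68). It was 2.84 in Stem_cell_1 (72 and 19 UMIs, interval 2.39 to 7.05) and 1.18 in proliferating cells (27 and 39 UMIs). Cancer_cell_1 held only 11 UMIs in CIN_high and 4 in CIN_low and did not count as measured.

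The share of epithelial cells with Gja1 was set against that of myeloid cells. In cells thinned to 2000 UMIs, 1.17% of CIN_high and 0.291% of CIN_low epithelial cells had a Gja1 UMI, against 0.966% of CIN_high and 0.744% of CIN_low myeloid cells, whose median depths were 5721.5 and 6171 UMIs. The CIN_low epithelial share thus lay below that of myeloid cells, and the CIN_high share little above it. Subtypes differed at that depth: in CIN_high 2.37% of Stem_cell_1 cells (interval 1.03 to 4.61) and 0% of Cancer_cell_1 cells (upper bound 0.682) had a Gja1 UMI, and in CIN_low 0.890% (0.184 to 2.58) and 0% (upper bound 0.518), where the intervals overlapped. The part of free RNA in the epithelial Gja1 values was not tested. Fibroblast markers moved the same way: all 7 had a UMI in CIN_high epithelium and summed to 0.600 UMIs per 10000, while 6 of 7 summed to 0.0336 in CIN_low, with Lum at 0. The 25 CIN_high cells of the Igfbp+_cell subtype had a fibroblast marker sum of 27.2 and a Gja1 level of 0.450, and CIN_low had no cell of that subtype. Without epithelial cells that held a fibroblast marker UMI the ratio was 2.22 (105 and 79 UMIs), and without cells holding any fibroblast, endothelial or pericyte marker UMI it was 2.99 (77 and 35 UMIs). Both filters were added after seeing the data. The planned one, without cells holding 3 or more UMIs of other types' markers, left 50 Gja1 UMIs in CIN_high and 0 in CIN_low and gives no direction.

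The 250 bases before the RefSeq start of Gja1 are shown because this gene had the highest epithelial ratio of the set. In GRCm38.p6 they lie on the plus strand at chr10:56377050-56377299, and the gene spans 56377330 to 56402513 on chromosome 10 in GENCODE's mm10 annotation. Capitals mark a match to TGANTCA, the letters of an AP-1 site, 19 bases before the start.

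Gja1 promoter: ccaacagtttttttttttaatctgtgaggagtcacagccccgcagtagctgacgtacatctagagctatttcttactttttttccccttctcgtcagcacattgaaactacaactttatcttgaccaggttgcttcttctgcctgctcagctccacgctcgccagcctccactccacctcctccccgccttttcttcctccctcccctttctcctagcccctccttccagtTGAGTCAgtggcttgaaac

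The TGANTCA letters, which read alike on both strands, occur in 6.75% of 32851 RefSeq windows of this length. GGAATG, the core letters bound by TEAD factors, searched on both strands (12.64% of windows), and TATAAA, likewise on both strands (12.37%), did not occur. A match describes letters only.

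Sprr2a3, the small proline-rich gene, had 2.01 UMIs per 10000 in CIN_high and 0.808 in CIN_low epithelium. The ratio was 2.48, and by summed UMIs 2.27 (6175 and 4049 UMIs, interval 2.18 to 2.36). Like Clu it was uneven, with 83.0% of CIN_high and 84.5% of CIN_low UMIs in the 10% of cells that held most. A single CIN_low Stem_cell_1 cell held 705 UMIs, 17.4% of that library's epithelial total. The secretory subtype led, at 5.69 in CIN_high and 5.88 in CIN_low. In Cancer_cell_1 the levels were 0.819 in CIN_high and 0.198 in CIN_low, the widest ratio of the measured genes in that subtype at 4.14 (849 and 326 UMIs, interval 3.37 to 4.37). Proliferating cells showed 2.94 and enterocytes 2.06, whereas secretory cells showed 0.969. By summed UMIs the enterocyte ratio was 1.503, barely past the line (315 and 262 UMIs, interval 1.27 to 1.78). In Stem_cell_1 the ratio was 1.84, but 1.38 by summed UMIs, where the CIN_low cell with 705 of 2058 UMIs weighs fully. Epithelium held 98.4% of the UMIs in CIN_high and 98.1% in CIN_low.

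Sprr2a3 shares sequence with its neighbours Sprr2a1 and Sprr2a2. The last 300 bases of their longest annotated transcripts were 99.0% identical to those of Sprr2a3, 3 bases apart, so reads from the 3 copies may have been split or dropped and the Sprr2a3 level is uncertain. In epithelium Sprr2a1 had 30 UMIs in CIN_high and 27 in CIN_low, and Sprr2a2 17 and 10. The gene spans 92285417 to 92291405 on the plus strand of chromosome 3 (mm10). Its upstream window, chr3:92285054-92285303 on the plus strand of GRCm38.p6, is shown because its copies can be told apart there better than in their transcript ends: promoters of Sprr2a1 and Sprr2a3 were 81.33% identical over 300 bases. It holds none of the 3 motifs, so no letter is in capitals.

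Sprr2a3 promoter: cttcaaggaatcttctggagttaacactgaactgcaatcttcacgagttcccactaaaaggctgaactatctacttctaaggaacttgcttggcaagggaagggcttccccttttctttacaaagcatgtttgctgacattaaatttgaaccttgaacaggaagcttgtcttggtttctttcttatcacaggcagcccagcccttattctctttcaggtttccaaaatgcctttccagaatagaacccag

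**Figure D1:**
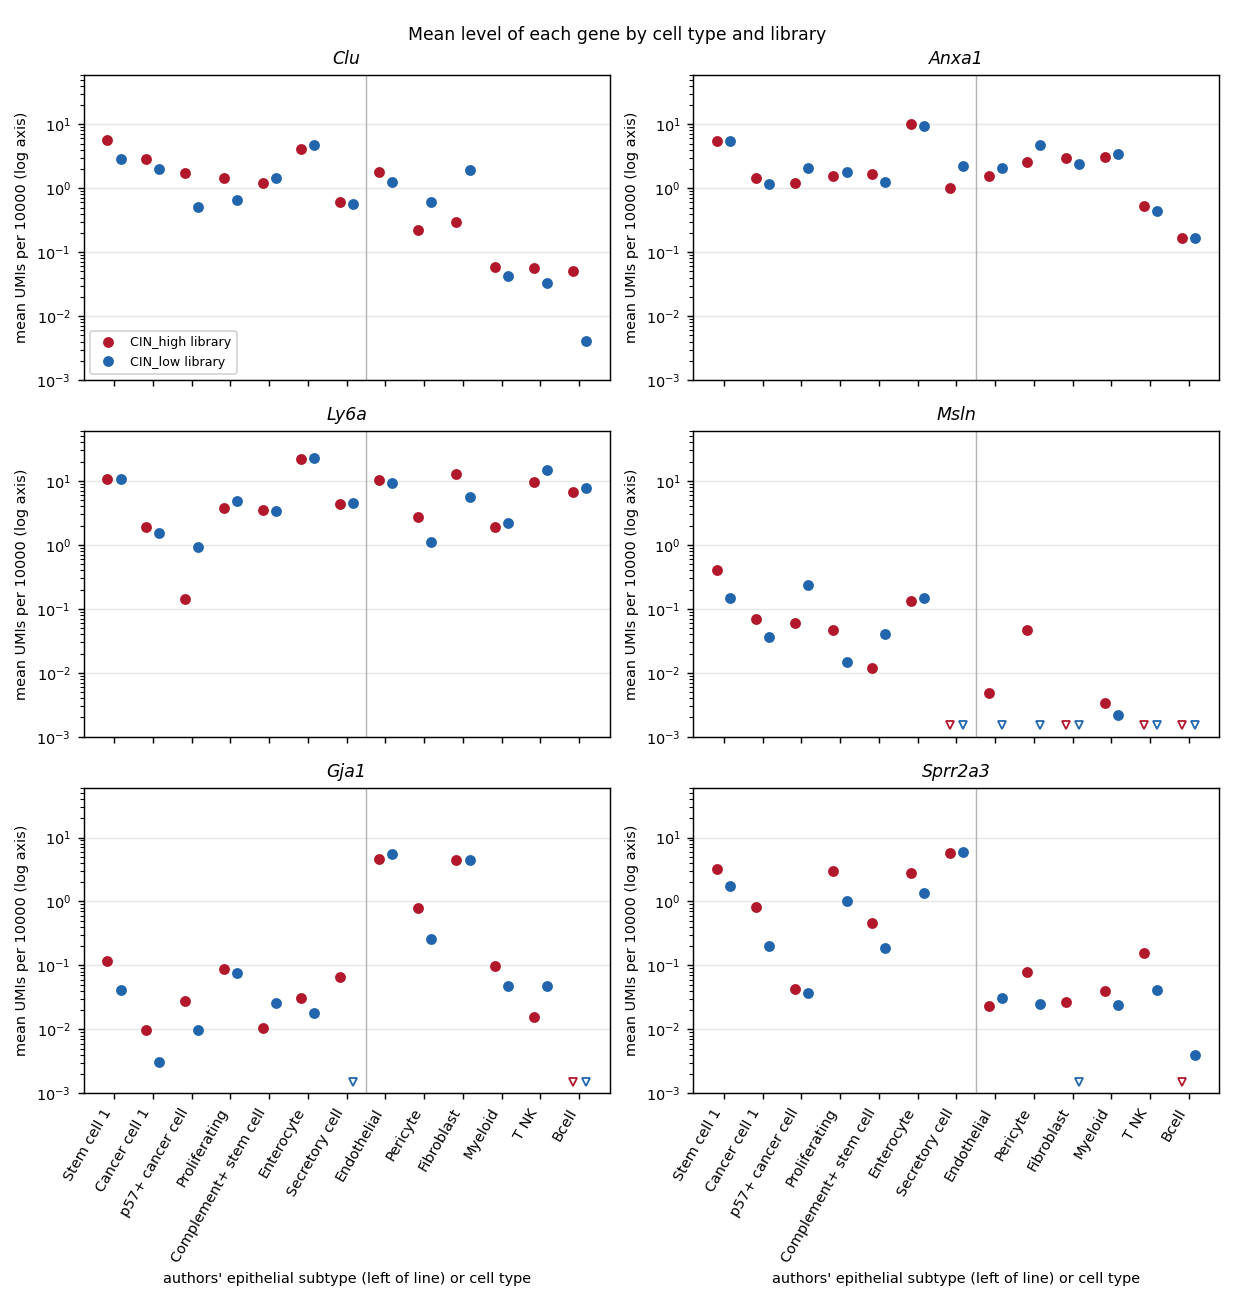
Mean UMIs per 10000 of each gene (log axis) in 7 epithelial subtypes, left of the grey line, and 6 other types, for the CIN_high (red) and CIN_low (blue) libraries; open triangles at the bottom are levels with 0 UMIs. Anxa1 and Ly6a were highest in enterocytes, Msln was highest in Stem_cell_1 by the mean of both libraries, Sprr2a3 in the secretory subtype, and Gja1 was highest in endothelium and fibroblasts.

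Across 13 types and subtypes the levels of most neighbours in rank could not be told apart by the spread between libraries. Of the 12 neighbouring pairs in each gene's order, the ranges over both libraries overlapped in 9 for Clu, 6 for Anxa1, 6 for Ly6a, 11 for Msln, 7 for Gja1 and 9 for Sprr2a3. Steps without overlap included the lead of enterocytes for Anxa1 and Ly6a, of the secretory subtype for Sprr2a3, and of endothelium over fibroblasts and of fibroblasts over pericytes for Gja1. The Gja1 step of endothelium over fibroblasts was narrow, 4.60 in CIN_high endothelium against 4.46 in CIN_low fibroblasts. That fibroblast level rests on 21 cells with 117 UMIs.

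Over all epithelial cells, 6 of 6 genes counted as measured, 4 were past 1.5-fold higher in CIN_high (Clu, Msln, Gja1 and Sprr2a3) and 0 lower. Of all 13304 genes, 4.16% were higher and 7.70% lower by the same line. Because the 6 genes were chosen with earlier results of these data known, the counts describe them and are not independent support. Gja1 counts here with few UMIs, a cell share near the myeloid one and fibroblast markers higher in the same library, as given above. In Cancer_cell_1, the largest subtype (549 CIN_high and 710 CIN_low cells), 2 of 5 measured genes were higher (Msln and Sprr2a3) and 0 lower, beside 5.98% and 8.48% of all genes. Stem_cell_1 (346 and 338 cells) had 4 of 6 higher, the same 4 genes as epithelium as a whole, and 0 lower, beside 8.73% and 13.1% of all genes. Proliferating cells (111 and 199) had 3 of 6 higher (Clu, Msln and Sprr2a3) and 0 lower, beside 10.3% and 14.0%; Msln rested on 14 and 21 UMIs there and stood at 1.35 by summed UMIs, short of the line. Enterocytes (107 and 98 cells) had 2 of 6 higher, Sprr2a3 and, on 5 UMIs in each library, Gja1, and 0 lower, beside 14.9% and 22.6%. In p57+_cancer_cell (77 and 211 cells) the 6 genes went apart: Clu and, on 2 and 4 UMIs, Gja1 were higher, and Anxa1, Ly6a and Msln lower, so 2 and 3 of 6, beside 15.0% and 16.5% of all genes. The smaller subtypes also held genes on the lower side. Complement+_stem_cell (39 and 85 cells) had 1 of 6 higher, Sprr2a3 at 2.49, and 2 lower, Msln (1 UMI in CIN_high, 13 in CIN_low) and Gja1 (1 and 8), both with intervals that include 1, beside 13.8% and 19.0% of all genes. Without cells marked as doublets, Clu was at 0.280 there, Anxa1 at 0.903, Ly6a at 0.777, Gja1 at 2.604, Sprr2a3 at 1.81 and Msln at 0.313. Macrophage and monocyte markers summed to 60.7 in its CIN_high and 47.2 in its CIN_low cells, beside 51.2 and 60.9 for epithelial markers. The part of other cells in these ratios was not tested. Secretory cells (54 and 48) had 1 of 5 higher, Gja1 with 7 UMIs in CIN_high and 0 in CIN_low, and 1 lower, Anxa1, beside 18.1% and 23.4%.

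**Figure D2:**
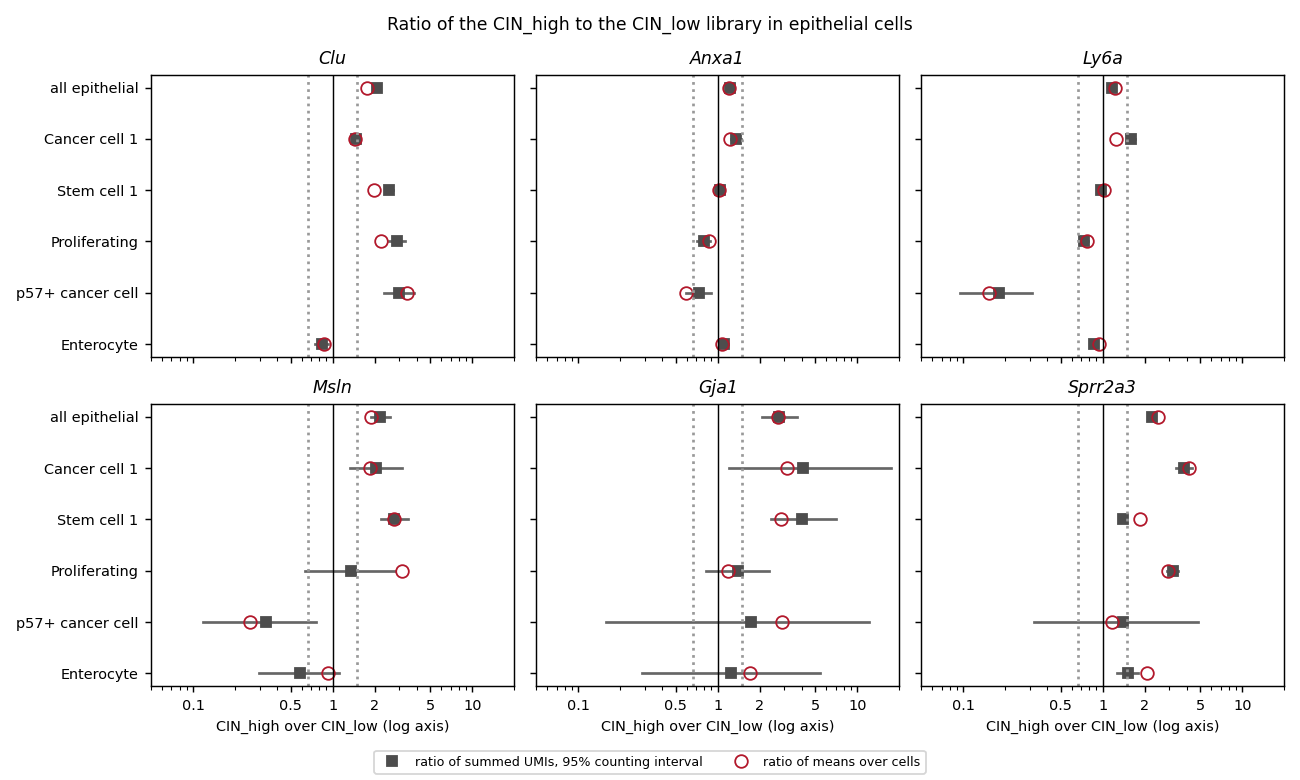
Ratio of the CIN_high to the CIN_low library (log axis) for each gene in all epithelial cells and 5 subtypes; squares with bars are ratios of summed UMIs with 95% counting intervals, circles are ratios of mean levels, and dotted lines mark 1.5-fold either way. Sprr2a3 lay above 1 in each row by both measures, Clu in all but enterocytes, and in p57+_cancer_cell Ly6a (0.152) and Msln (0.255) lay below 1.

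Part of the epithelial difference moved with the mix of subtypes. Stem_cell_1 made up 26.3% of CIN_high and 19.6% of CIN_low epithelial cells, enterocytes 8.13% and 5.68%, and p57+_cancer_cell 5.85% and 12.2%. With both libraries set to the same mix, Anxa1 stood at 1.03 and Ly6a at 0.986. Clu was then at 1.58, Msln 1.65, Sprr2a3 2.003 and Gja1 2.18, all still past the line. The mix covers subtypes found in both libraries and so leaves out the Igfbp+_cell subtype. Marker sums of other cells also moved with the class: those of fibroblasts were higher in CIN_high epithelium, as given for Gja1, and B cell markers summed to 0.0903 in CIN_high and 0.927 in CIN_low. Without epithelial cells holding a fibroblast marker UMI, a filter added after seeing the data, Clu was at 1.82, Msln at 1.91 and Sprr2a3 at 2.50. The planned filter left out cells with 3 or more UMIs of other types' markers and kept only 632 CIN_high and 48 CIN_low cells. Clu was then at 1.66, Sprr2a3 at 1.76 and Msln, on 120 and 9 UMIs, at 0.563.

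The genes were next compared cell by cell, with each epithelial cell of at least 5000 UMIs thinned to that depth (1207 CIN_high and 1623 CIN_low cells, with 109 and 102 shallower cells left out). A Clu UMI was then found in 42.5% of CIN_high and 32.2% of CIN_low cells, against unthinned shares of 59.5% and 49.4%. For Anxa1 the thinned shares were 50.0% in CIN_high and 43.8% in CIN_low, for Ly6a 52.1% and 39.6%, and for Sprr2a3 26.9% and 16.4%. Msln was in 4.14% of CIN_high and 2.34% of CIN_low cells. As a background, in cells thinned to 2000 UMIs, myeloid shares were 0.888% in CIN_high and 0.523% in CIN_low for Clu, 0.618% and 0.442% for Sprr2a3, and 0.0772% and 0.0603% for Msln, below the epithelial shares at that depth of 27.9% and 20.2%, 17.1% and 10.3%, and 2.57% and 1.28%.

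Most of the genes were found together. Ly6a was in 71.6% of CIN_high cells with Anxa1 and 32.6% of those without (interval 67.9 to 75.2 and 28.9 to 36.5), and in CIN_low in 62.3% and 21.9%. Given Clu, Anxa1 was in 62.0% of CIN_high cells against 41.1% without Clu, and in CIN_low in 53.8% against 39.1%. Msln was found in 8.19% of Clu-bearing CIN_high cells and 1.15% of the others, and in 5.17% and 1.00% in CIN_low. Within Stem_cell_1 alone Msln was in 14.3% of CIN_high cells with Clu and 0.704% without, and in 10.1% and 1.69% in CIN_low. Sprr2a3 went with Ly6a, at 38.8% with and 14.0% without in CIN_high, and 27.5% and 9.08% in CIN_low. Over 2 random draws, 8 of the 15 gene pairs had intervals apart in both libraries and both draws. The other 7 were the 5 pairs with Gja1, Clu with Sprr2a3, and Msln with Sprr2a3. These cells mix subtypes, and cells of 1 library are not replicates.

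**Figure D3:**
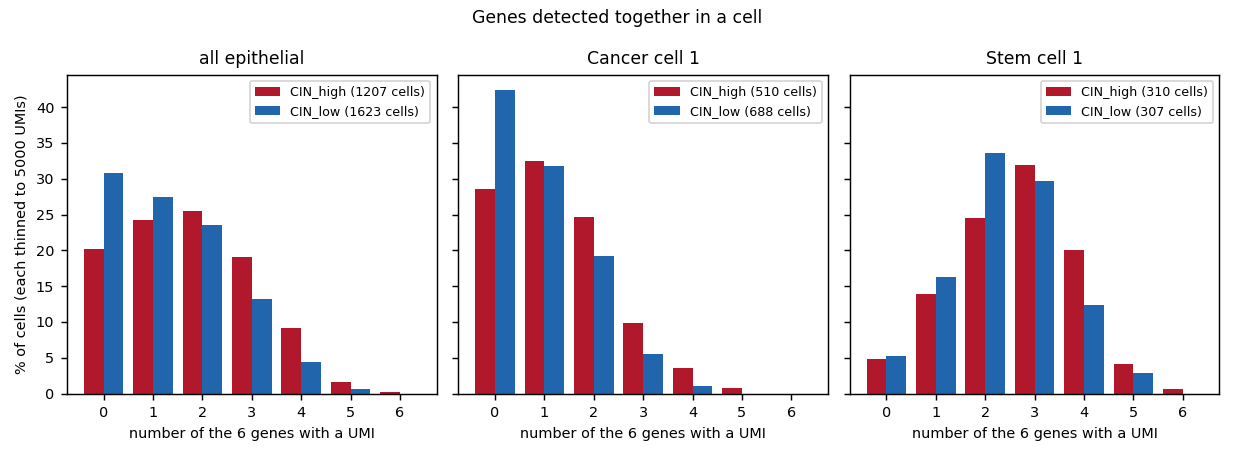
Percent of epithelial cells (each thinned to 5000 UMIs) by the number of the 6 genes with a UMI, in all epithelial cells, Cancer_cell_1 and Stem_cell_1, for CIN_high (red) and CIN_low (blue). Cells with none of the 6 made up 20.2% of CIN_high and 30.7% of CIN_low epithelium.

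Counted per cell, 244 of 1207 CIN_high cells (20.2%) and 499 of 1623 CIN_low cells (30.7%) had none of the 6 genes at this depth. At least 4 were found in 10.9% of CIN_high and 5.05% of CIN_low cells, and all 6 in 2 CIN_high cells and 0 CIN_low cells. A second draw gave 17.6% and 31.1% with none, and 12.1% and 4.68% with at least 4. Stem_cell_1 cells had at least 4 in 24.8% in CIN_high and 15.3% in CIN_low, and Cancer_cell_1 cells none in 28.6% and 42.4%. All 88 CIN_high and 74 CIN_low enterocytes had at least 1 of the 6.

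The genes nearest to each of the 6 in pattern were found over 26 library-by-type profiles (7846 genes with at least 0.5 UMIs per 10000 in 1 profile). The profiles of 1 library share its depth and free RNA, so the correlations are descriptions. For Clu they were Myo6, Nectin2 and Cyp2j6 (Pearson's r 0.925 for Myo6), and for Anxa1 its family member Anxa2 (0.901), Ifih1 and Ubap1. Ly6a was nearest to Zfp36l2 (0.816), Acsl5 and Slc26a2, and Msln to Gsta4 (0.790), Wwc1 and AA986860. Gja1 stood with Adamts5 (0.984), Ptprm and Fbln5, and Sprr2a3 with Inava (0.954), Oit1 and Samd5. Over single epithelial cells (12565 genes, the lower of both libraries' values), Anxa1 and Ly6a were among each other's nearest 3, at 0.626. Each also had S100a10, the partner of annexin A2, among its nearest 3, at 0.583 for Anxa1 and 0.644 for Ly6a. Clu was nearest to S100a11 at 0.335 and Msln to Mal at 0.399. Sprr2a3 was nearest to the galectin gene Lgals4 at 0.432, and Gja1 to Igfbp7 at 0.236.

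The rest of the fetal-like state was described by a list of other genes, also chosen with earlier results of these data known. Of 30 listed, 29 were measured in epithelium, 5 were past 1.5-fold higher in CIN_high and 0 lower, beside 4.16% and 7.70% of all genes, and the list's median log2 ratio was 0.17 against -0.10 for all genes. The 5 were Spp1 (osteopontin, 1.73), Anxa8 (1.70), Ly6d (1.65), Wfdc2 (1.58) and the EGF receptor ligand gene Ereg (4.96, on 92 and 14 UMIs). The repair-associated cytokine gene Il33 was at 1.19 and the surface receptor gene Cd44 at 1.37. With the subtype mix held the same, 1 of the list was higher and its median was -0.0013. The shares and the median of all genes were not taken under that mix, so these values stand without a background.

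Genes tied to Yap and TEAD factors had a median log2 ratio of -0.12. Of 24 listed, 22 were measured, 7 had a ratio above 1, and past the line were 2 on the higher and 2 on the lower side, beside 4.16% and 7.70% of all genes. Past the line on the higher side were the phosphatase gene Ptpn14 (1.92) and Dlc1 (2.99, on 49 and 15 UMIs), and on the lower side the matricellular Ccn1 (0.601) and the ligand gene Tgfb2 (0.408, on 49 and 128 UMIs). Yap1 itself was at 0.920 and the TEAD factor gene Tead1 at 0.763. Of 16 crypt base stem cell markers, 15 were measured, 0 were higher and 1, the RNA-binding protein gene Msi1, was lower (0.611), with a median of -0.09, so that the list lay near those shares of all genes. The 16 markers summed to 26.1 UMIs per 10000 in CIN_high and 25.6 in CIN_low Stem_cell_1, the subtype where Clu and Msln were high, with Olfm4 at 0 in CIN_high, and to 6.80 and 6.37 in enterocytes, where Anxa1 and Ly6a were highest.

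**Figure D4:**
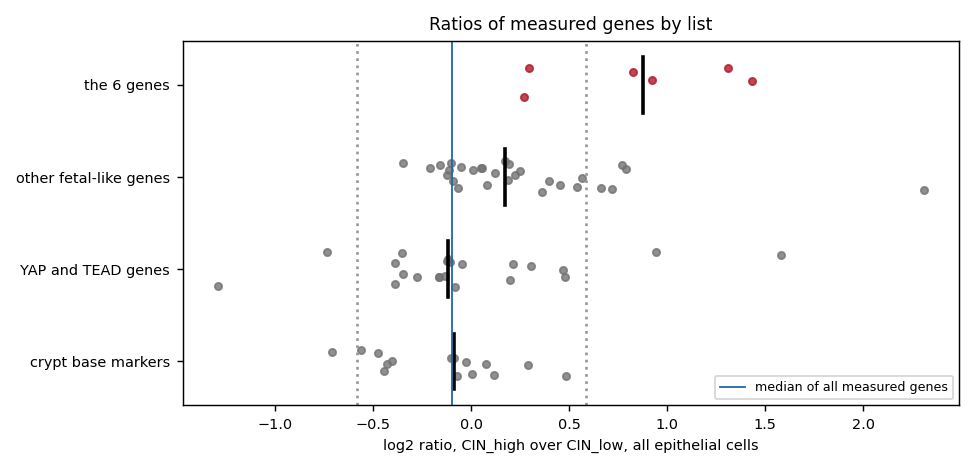
Log2 ratio of CIN_high over CIN_low epithelium for each measured gene of 4 lists, with black bars at each list's median, the blue line at the median of all measured genes (-0.10) and dotted lines at 1.5-fold either way. Of the 6 genes 4, with Gja1 on 147 and 79 UMIs among them, lay right of the upper dotted line, and 5 of 29 other fetal-like genes did.

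Relatives of the genes were set beside them, again against 4.16% higher and 7.70% lower among all genes. Of 9 measured annexins only Anxa8 was past the line (1.70), and Anxa2 was at 1.09. In the Ly6 family 11 were measured, with Ly6d, Lypd8 (1.54) and Ly6k (81 UMIs in CIN_high, 5 in CIN_low) higher and the leukocyte gene Ly6c2 (0.330) and Ly6i (0.380) lower. Of the connexins 6 were measured, and besides Gja1 only Gjb5 was higher (1.73, on 52 and 49 UMIs); Gjb1, the connexin 32 gene, had 0.144 UMIs per 10000 in CIN_high and 0.181 in CIN_low epithelium. Among 4 measured small proline-rich genes Sprr2a3 and Sprr2a1 were higher (2.48 and 1.71), Sprr2b lower (0.302) and Sprr1a at 0.917. Sprr2a1 rested on the few UMIs given above, and its transcript end was 99.0% identical to that of Sprr2a3, so their values may not be independent.

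Receptors and partners of the encoded proteins were followed in epithelium. Of 7 measured, 0 were past the line on the higher side and 3 on the lower, beside 4.16% and 7.70% of all genes: Fpr1 (0.239) and Fpr2 (0.391), the annexin A1 receptor genes, and Lrp8 (0.665), a clusterin receptor gene. The Fpr genes were mainly myeloid, and Fpr1 averaged 0.871 UMIs per 10000 over CIN_high and 1.90 over CIN_low myeloid cells, against 0.0117 and 0.0489 in epithelium. Neutrophil markers in epithelium, all 8 with a UMI in each library, summed to 6.42 in CIN_high and 17.9 in CIN_low, and their part in these receptor values was not tested. Vldlr, another clusterin receptor gene, was at 1.39 and Tjp1, whose protein binds connexin 43, at 1.08.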

How the data were processed

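The submitters' processing notes name Cell Ranger 2.1.1, Seurat and mm10 for these single cells of distal colon adenomas; the annotation release and the cell filters are not stated there. The authors deposited 1 matrix of natural log values, a class, a cell type and an epithelial subtype per cell. The exponential minus 1 of the deposited values summed to 10000 in every cell, so each is ln(1 + UMIs per 10000). Divided by the cell's smallest non-zero value, 100% of the values were whole within 0.01 and were taken as UMIs; the design had foreseen log values or counts. All cell names start with a prefix that fits only 1 sample title while their suffixes fit both, so no cell was assigned to G4+T or G0+T.

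The 6 genes and the lists were chosen with earlier results of these data known. Levels needed 20 cells, ratios 30 cells in each library; with 3 or fewer UMIs on both sides no ratio was formed, and a side with 0 UMIs was set to 3. Intervals are exact conditional binomial (ratios) and Clopper-Pearson (shares). Thinned shares come from 1 random draw of UMIs per gene, and a second draw was added after seeing the data. Named genes were the 6, list genes past 1.5-fold, the best-measured relatives and the 3 nearest in pattern (log2 of level + 0.1); Il33, Cd44, Yap1, Tead1, Vldlr, Tjp1 and Sprr1a were added after their values were seen. Some genes of the lists are not reported here by name. Scrublet in Scanpy 1.11.5 marked 142 CIN_high (2.29%) and 249 CIN_low cells (3.15%) as doublets, which were kept. On simulated epithelial cells of 1 pooled profile (13304 genes), 98% of genes set 2-fold higher, 88% of those set 2-fold lower and 100% of those changed 4-fold passed the 1.5-fold line, as did 2.22% of unchanged genes. The changed genes were drawn only from those above a minimum of expected UMIs. The simulation held counting error alone, without the concentration in few cells seen for Clu and Sprr2a3, so these shares may be too favourable. Upstream sequences are from RefSeq (GRCm38.p6), which matched 3 of the 6 genes; the Anxa1 window lies in an exon of a longer transcript and is not shown. Python 3.11.15, numpy 2.4.6, pandas 2.3.3, SciPy 1.17.1 and matplotlib 3.10.9 were used.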

Additional observations from a re-analysis of the deposited data

How the results depend on the processing

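With 1 library per class no replicate could be left out. No paired analysis was possible because there is 1 library per class. Over the alternatives, 67 values of the main results stayed, 30 moved and 2 reversed. Of single values in subtypes, shares and co-detection, 93 stayed, 38 moved and 1 reversed. Ratios and shares were judged by their counting intervals, list counts by a factor of 1.5 and list medians by 0.1 in log2. By summed UMIs, a measure in which deeper cells weigh more, Clu was 2.069, Ly6a 1.16 and Sprr2a3 2.265. With a standardised subtype mix Clu was 1.575, Anxa1 1.025, Ly6a 0.9861 and Sprr2a3 2.003, the other fetal-like genes had 1 member higher, and their median reversed to -0.001312. Relative to the median of all genes Clu was 1.895, Anxa1 1.287, Ly6a 1.313 and Sprr2a3 2.653. With mitochondrial and ribosomal protein genes out of the total, Ly6a was 1.259 and Sprr2a3 2.606. Without cells holding 3 or more UMIs of other types' markers, only 632 CIN_high and 48 CIN_low cells (48.0% and 2.78%) were left: Clu was 1.658, Ly6a 1.894, Sprr2a3 1.756, and Msln reversed to 0.5634 on 120 and 9 UMIs. Gja1 had 50 UMIs in CIN_high and 0 in CIN_low there; with that 0 set to 3 UMIs the ratio was at least 0.779, a bound that gives no direction. The cause of these changes was not tested. Of the alternatives chosen after seeing the data (cells without fibroblast marker UMIs, without stromal marker UMIs, without shared barcodes, and second draws), these moved values: without stromal marker UMIs (808 CIN_high and 1131 CIN_low cells) Clu was 1.677, Anxa1 1.242, Ly6a 1.279 and Sprr2a3 2.871, and in a second draw of 5000 UMIs Clu was 1.845, Msln 2.384 and Gja1 4.758. The planned draw gave Msln 2.465, Gja1 3.746 and Sprr2a3 2.614. At a 2-fold line 1 other fetal-like gene was higher, and at a line below 1.5-fold 10 were higher and 1 lower. Shares of all genes were taken at the 1.5-fold line only, so the counts at these other lines stand without a background. Gja1 in the complement-positive stem cells reversed from 0.396 to 2.604 without doublets, on 1 and 8 UMIs before their removal. In the same cells Clu moved to 0.280, Anxa1 to 0.903 and Ly6a to 0.777. Depth limits Msln and Gja1 most: outside Stem_cell_1 no subtype held over 63 UMIs of either gene in a library.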
